A study of Mus musculus with 4 samples.

Results

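The synaptic genes Gria2, Grin2b, Snap25 and Syt1 were followed through the cells of mouse medulloblastomas profiled one cell at a time. These 4 genes are 4 of the 15002 rows of each tumour's count table. They were chosen by their measured UMI counts in dividing, non-dividing and neuronal cells of these same tumours, known from an earlier analysis, so their levels in those classes are given as a description, without a test. All 4 tumours, numbered 1 to 4, form 1 group: untreated mice at postnatal day 16 carrying hGFAP-Cre, the SmoM2 allele and floxed alleles of both Prkaa1 and Prkaa2. SmoM2 is an activated form of Smoothened, which switches on Sonic hedgehog signalling, and Prkaa1 and Prkaa2 encode the catalytic subunits of AMP-activated protein kinase. The human GFAP promoter drives Cre in neural stem and progenitor cells, so vessel and immune cells of the tumours are expected to keep the floxed alleles. Tumours with intact Prkaa1 and Prkaa2, which the series also mentions, were not analysed here.

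Sonic hedgehog medulloblastoma grows from progenitors of cerebellar granule neurons. Such progenitors can leave the cell cycle and begin to differentiate, and tumours of this kind hold both dividing and neuron-like cells. Gria2 encodes the AMPA receptor subunit GluA2, which limits the entry of calcium through that glutamate receptor. Grin2b encodes the NMDA receptor subunit GluN2B, which prevails in young neurons. Snap25 and Syt1 act on the other side of the synapse: SNAP-25 is a SNARE protein of the plasma membrane that drives fusion of vesicles, and synaptotagmin 1 is the calcium sensor of fast transmitter release.

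In the GRCm38 build (GENCODE M21), Gria2 occupies bases 80681450 to 80802835 of chromosome 3, minus strand. Grin2b occupies bases 135713233 to 136173511 of chromosome 6, also minus strand. Snap25 spans 136713453 to 136782428 on the plus strand of chromosome 2. Syt1 covers 108497650 to 109010982 on the minus strand of chromosome 10. RefSeq promoter windows (GRCm38.p6), from 250 bases before the transcript start to 50 after it, were at hand for 2 of the 4 genes, 1 for Gria2 and 2 for Syt1. The Gria2 window and the more upstream Syt1 window are shown because these genes lie at opposite ends in dividing cells, Gria2 being readily counted there and Syt1 hardly at all. Both are written 5′ to 3′ on the minus strand, and capitals mark letters that matched a motif on either strand.
Gria2, chr3:80802786-80803085: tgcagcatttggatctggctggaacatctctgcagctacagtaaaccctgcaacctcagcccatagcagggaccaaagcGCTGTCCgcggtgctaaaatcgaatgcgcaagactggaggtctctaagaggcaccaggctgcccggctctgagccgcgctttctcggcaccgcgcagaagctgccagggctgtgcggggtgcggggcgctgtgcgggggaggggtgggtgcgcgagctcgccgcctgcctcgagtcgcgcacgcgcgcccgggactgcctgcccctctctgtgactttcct
Syt1, chr10:109010926-109011225: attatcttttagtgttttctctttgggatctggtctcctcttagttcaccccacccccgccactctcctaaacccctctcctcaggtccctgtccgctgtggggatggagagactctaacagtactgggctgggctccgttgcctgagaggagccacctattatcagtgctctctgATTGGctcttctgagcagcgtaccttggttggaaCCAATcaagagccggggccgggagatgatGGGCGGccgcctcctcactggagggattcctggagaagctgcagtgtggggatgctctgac
In the Gria2 window the only match was to GGACAGC, part of the element bound by the repressor REST, and 6.56% of 32851 promoter windows of that length hold it. The Syt1 window shown held CCAAT 2 times and the GC box GGGCGG 1 time, motifs found in 37.4% and 35.7% of the windows. Neither of these windows held TTCAGCACC, another part of the REST element (0.371% of windows), the cyclic AMP response element core TGACGTCA (1.79%), or the E-boxes CAGATG and CAGCTG (30.6% for either). The other Syt1 window (chromosome 10, from 109009062 to 109009361) held the E-box CAGCTG 1 time and none of the other motifs. None of the matches overlapped another, and a match of letters shows no binding.

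Cell barcodes with at least 500 unique molecular identifiers (UMIs, each standing for 1 captured transcript) were used, 3222 of 6734. Tumours 1 to 4 gave 766, 807, 566 and 1083 of them, with 528971 to 1253618 UMIs per tumour and medians of 749 to 972 UMIs per barcode. No barcode of this depth was shared between tumours. Prkaa1 had 3 to 16 UMIs and Prkaa2 5 to 14 UMIs per tumour, and a 3′ count does not show whether the floxed exons were lost. Mitochondrially encoded genes took 12.1% (tumour 1) and 12.7% (tumour 2) of the UMIs, but 2.68% (tumour 3) and 2.13% (tumour 4) in the others. The labels name no batch, so these pairs of tumours are also given apart, and what sets them apart cannot be told apart from differences between the animals. After thinning to 500 UMIs, a barcode with at least 5 UMIs of a list of 40 cell cycle genes was called dividing, and one with at least 5 UMIs of a list of 21 neuronal genes neuronal. Barcodes past both limits were set apart as mixed (170, of which 82 were in tumour 2), and 82 with at least 4 markers of a glial, vascular or immune type as other. The rest were called non-dividing. This left 1155 dividing, 895 non-dividing and 920 neuronal cells. Either list stood at 4 or 5 UMIs, next to the limit, in 740 of the 3222 cells. None of the synaptic genes described here belongs to the 2 lists. Neuronal cells carried a summed 2742 to 3518 CPM (UMIs per 1000000 UMIs of the class) of 9 granule-lineage markers, against 1808 to 1871 CPM in dividing cells. Of 7 markers of GABAergic interneurons only Pvalb was in the tables, with 28 UMIs in neuronal and 83 in dividing cells. Purkinje markers summed to 224 to 282 CPM in neuronal and 88.8 to 200.4 CPM in dividing cells. Of 6 markers of unipolar brush or glutamatergic nuclear neurons 3 were in the tables, and they summed to 333 to 823 CPM in neuronal and 87.1 to 292 CPM in dividing cells. Most of these UMIs were of Slc17a6 (374 in neuronal cells), which is also in the synaptic list, and Eomes had 31 UMIs in neuronal and 3 in dividing cells. The part of other neurons in the results was not tested.

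All 4 genes were higher on average in neuronal cells than in the other classes, but by very different amounts. Grin2b and Syt1 had few UMIs in dividing and non-dividing cells, whereas Gria2 and Snap25 had many more there. Gria2 and Snap25 were about as high in non-dividing as in dividing cells, and the step came with the neuronal class. In the comparison of neuronal with dividing sums over all genes (edgeR), 35.6% of 4774 tested genes were called at an adjusted p under 0.05, 16.8% higher and 18.8% lower. All 4 neuronal sums lay above all 4 dividing sums for 9.49% of genes. This was so for Grin2b, Snap25 and Syt1 and not for Gria2, and since the genes were chosen for this contrast nothing further is read from it. In bulk sums like these, fewer cells that carry a transcript and less of it per cell cannot be told apart, and the shares of cells below take up that point.

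**Figure D1:**
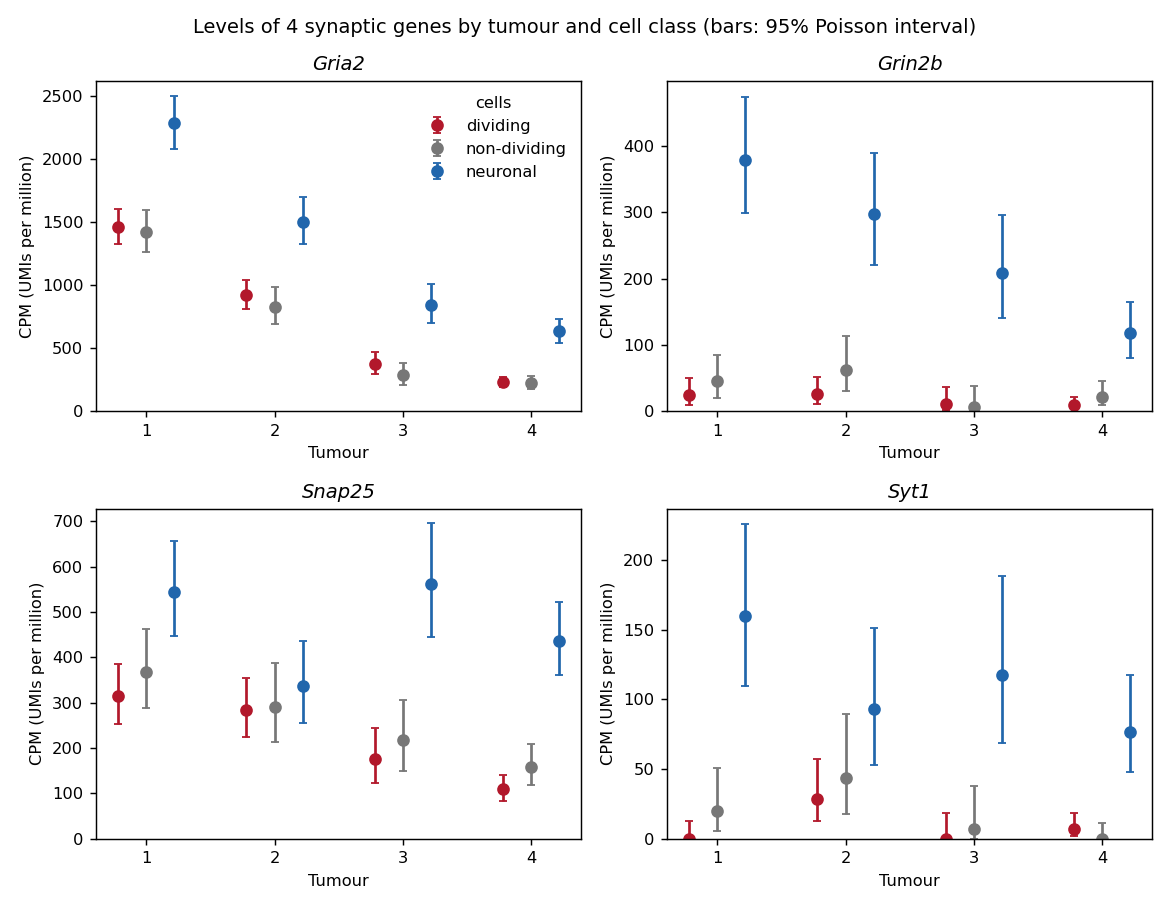
Level of each gene (y axis, CPM from UMIs summed over the cells of a class) in tumours 1 to 4 (x axis) for dividing, non-dividing and neuronal cells; points are sums and bars are exact 95% Poisson intervals. Neuronal Grin2b lies between 117 and 379 CPM and its dividing level between 8.88 and 25.2 CPM, while Gria2 falls from tumour 1 to tumour 4 in each class.

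Among the receptor genes, Gria2 was at 1462, 923, 372 and 229 CPM in dividing cells of tumours 1 to 4 (mean 746 ± 563, SD, n = 4). Non-dividing cells had 1422, 829, 285 and 222 CPM (mean 690 ± 559, SD, n = 4). In neuronal cells the levels were 2285, 1502, 845 and 633 CPM (mean 1316 ± 744, SD, n = 4). Within each tumour the neuronal level was the highest, but the classes overlapped across tumours, since dividing cells of tumour 1 exceeded neuronal cells of tumours 3 and 4. The ratio of neuronal to dividing level was 1.56, 1.63, 2.27 and 2.76 (mean 2.06 ± 0.57, SD, n = 4), and no tumour's 95% counting interval reached 1. Non-dividing to dividing ratios lay between 0.767 and 0.973, with intervals that all included 1. The edgeR estimate over all tumours was a log2 fold change of 0.92 (SE 0.14).

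Grin2b had 24.2, 25.2, 10.04 and 8.88 CPM in dividing cells, from 21 UMIs in all (mean 17.1 ± 8.83, SD, n = 4). Its non-dividing levels were 44.8, 61.9, 6.79 and 21.9 CPM (mean 33.8 ± 24.4, SD, n = 4). Neuronal cells reached 379, 297, 208 and 117 CPM, from 189 UMIs (mean 250 ± 113, SD, n = 4). Here the groups did not overlap: the lowest neuronal level was above the highest of both other classes. Against dividing cells 9.49% of all tested genes did so, and against non-dividing cells that share was not counted. The neuronal level exceeded the dividing one 15.7-, 11.8-, 20.7- and 13.2-fold, and the counting intervals of these ratios were wide, from 5.25 to 179 in tumour 3, where dividing cells held 2 UMIs. The fitted log2 fold change was 3.76 (SE 0.27). Dividing and non-dividing cells did not differ beyond counting error in any tumour.

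Of the release machinery, Snap25 had 314, 285, 176 and 110 CPM in dividing cells (mean 221 ± 95.1, SD, n = 4) and 368, 291, 217 and 159 CPM in non-dividing cells (mean 259 ± 90.5, SD, n = 4). Neuronal cells had 544, 338, 561 and 436 CPM (mean 470 ± 104, SD, n = 4). Tumour 2 had the lowest neuronal value, and the non-overlap of neuronal and dividing cells rests on 338 against 314 CPM. Non-dividing cells of tumour 1, at 368 CPM, were above it, so those classes overlapped. The neuronal to dividing ratio was 1.73 in tumour 1 and 1.19 in tumour 2, against 3.19 and 3.95 in tumours 3 and 4. In tumour 2 its interval of 0.830 to 1.68 includes 1, and the difference between classes was not detectable there at this depth. The fitted log2 fold change was 1.12 (SE 0.20) over all tumours, 0.52 in tumours 1 and 2 alone and 1.85 in tumours 3 and 4 alone.

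Syt1 was the least counted. Dividing cells held 0, 8, 0 and 4 UMIs of it in tumours 1 to 4, or 0, 28.9, 0 and 7.11 CPM. Non-dividing cells had 19.9, 43.3, 6.79 and 0 CPM. In neuronal cells the levels were 160, 93.1, 118 and 76.9 CPM (mean 112 ± 36.0, SD, n = 4), from 86 UMIs. All neuronal levels were above all levels of the other classes, a pattern whose share among all genes is known for dividing cells only (9.49%). Taking 3 counts as the floor per tumour, Syt1 was at least 15.4-fold higher in neuronal than dividing cells of tumour 1 and at least 7.82-fold higher in tumour 3. Tumours 2 and 4 gave ratios of 3.23 (95% counting interval 1.30 to 8.71) and 10.8 (3.65 to 43.3).

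The proportions between the genes shifted with the class. Dividing cells held 48.5 Gria2 UMIs for each Grin2b UMI in tumours 1 and 2 and 29.0 in tumours 3 and 4, and neuronal cells 5.64 and 4.76. For the release genes, neuronal cells had 3.48 Snap25 UMIs per Syt1 UMI in tumours 1 and 2 and 5.26 in tumours 3 and 4. All Syt1 UMIs of dividing cells came from tumour 2, with 9.88 Snap25 UMIs for each, and tumour 4, with 15.5, and tumours 1 and 3 had 91 and 35 Snap25 UMIs with 0 of Syt1. Non-dividing cells had 121 Snap25 and 11 Syt1 UMIs in tumours 1 and 2, and 83 and 1 in tumours 3 and 4. The excess of Gria2 over Grin2b was smaller in neuronal than in dividing cells of each tumour, and so was that of Snap25 over Syt1 in tumours 2 and 4. These counts are of 3′ ends, so they do not scale with transcript length, but capture may differ between transcripts.

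Shares of cells with a UMI, after thinning every cell to 500 UMIs, gave the same order of classes. Gria2 was seen in 44.1%, 30.9%, 14.1% and 9.54% of dividing cells of tumours 1 to 4 and in 59.6%, 46.2%, 30.4% and 26.6% of neuronal cells. Snap25 was seen in 13.8%, 11.3%, 8.70% and 4.65% of dividing cells and in 18.7%, 14.2%, 25.5% and 16.3% of neuronal cells. Grin2b appeared in 5 of 1155 dividing cells (0.433%, exact 95% interval 0.141 to 1.01), 13 of 895 non-dividing cells (1.45%, 0.776 to 2.47) and 86 of 920 neuronal cells (9.35%, 7.55 to 11.4). Syt1 appeared in 4, 5 and 46 cells of these classes, or 0.346%, 0.559% and 5.0%. At 500 UMIs a cell without a UMI may still carry the transcript. At least 1 of the 4 genes was seen in 74.9%, 59.4%, 50.5% and 41.5% of neuronal cells and in 52.5%, 39.9%, 20.7% and 14.7% of dividing cells.

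Cells that should lack these genes gave the background from free RNA. Of 42 cells with microglial or endothelial markers (1223 UMIs in the median cell), 0 had a thinned UMI of any of the 4 genes. The exact 95% interval allows a share of up to 8.41% for each gene. That limit is above the Grin2b and Syt1 shares of dividing and non-dividing cells and above the neuronal Syt1 share. In tumour 4 it is also above the shares of neuronal Grin2b (5.54%) and of dividing (4.65%) and non-dividing (6.83%) Snap25. By shares alone none of these can be told from background. By level, Grin2b had 22.6 CPM (0.573 to 126) and Syt1 0 UMIs (up to 83.5 CPM) in the 30 such cells of tumours 1 and 2, below the neuronal levels of each gene in both tumours, although the interval of neuronal Syt1 in tumour 2 (53.2 to 151) reached under its limit. For tumours 3 and 4 the upper limit was 161 CPM for either gene, which covers the neuronal levels of Syt1 in both and of Grin2b in tumour 4. Their summed Gria2 level was 59.6 CPM (95% interval 16.2 to 153). In tumours 1 and 2 it was 90.6 CPM (24.7 to 232), against 1198 CPM in dividing cells of the same tumours. In tumours 3 and 4, with 12 such cells, Gria2 had 0 UMIs there. Snap25 stood at 45.3 CPM (5.48 to 164) in the microglial or endothelial cells of tumours 1 and 2, below its levels in their dividing and non-dividing cells. For tumours 3 and 4 it was 43.5 CPM (1.10 to 243), an interval that covers the Snap25 levels of both classes there, so Snap25 in those cells cannot be told from background at this depth. Gria2 was also present outside the granule lineage: 19 cells with oligodendrocyte markers had 986 CPM (655 to 1425) and 16 with astrocyte markers 754 CPM (512 to 1070). Grin2b and Syt1 had 0 or 1 UMI in each of these glial groups.

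Levels were also taken along the neuronal list, in the non-dividing and neuronal cells together. In tumours 1 and 2, Grin2b stood at 6.74, 84.0, 268, 378 and 430 CPM in cells with 0 to 1, 2 to 4, 5 to 7, 8 to 11 and at least 12 neuronal-list UMIs. In tumours 3 and 4 the same bins gave 19.2, 15.4, 85.0, 134 and 231 CPM. Gria2 was already at 1038 CPM in the lowest bin of tumours 1 and 2 and at 2038 and 1934 CPM in the top 2 bins, whose intervals overlapped. In tumours 3 and 4 it went from 216 to 870 CPM. Snap25 had 303, 355, 474, 444 and 403 CPM in tumours 1 and 2, with intervals that overlapped between the lowest and the highest bin, but 192, 166, 276, 494 and 677 CPM in tumours 3 and 4. Syt1 went from 6.74 to 175 CPM in tumours 1 and 2 and from 0 to 149 CPM in tumours 3 and 4.

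**Figure D2:**
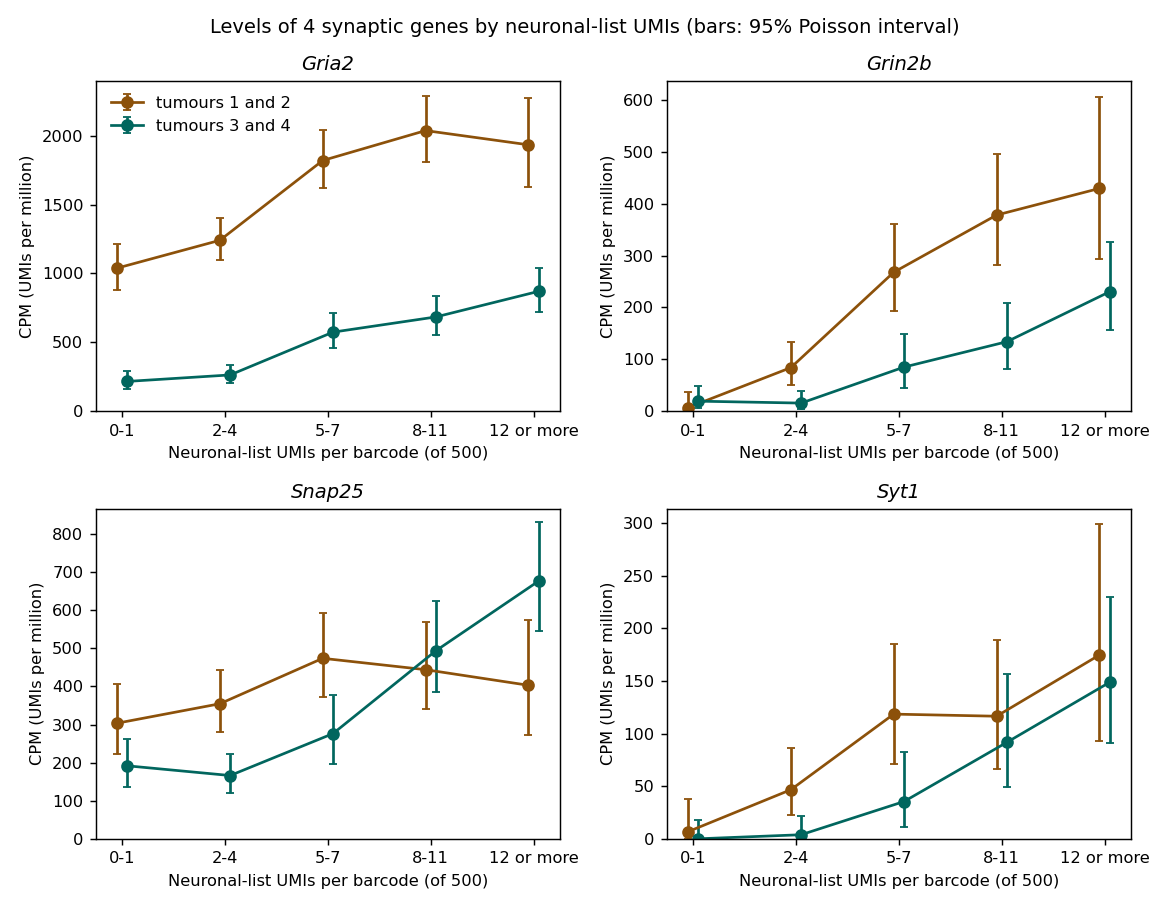
Level of each gene (y axis, CPM) by the number of neuronal-list UMIs in a cell thinned to 500 UMIs (x axis), summed over the non-dividing and neuronal cells of tumours 1 and 2 and of tumours 3 and 4; bars are exact 95% Poisson intervals. Snap25 stays between 303 and 474 CPM in tumours 1 and 2 and reaches 677 CPM in tumours 3 and 4.

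Levels also differed between the tumours. Over all cells Gria2 was at 1591, 1020, 475 and 317 CPM in tumours 1 to 4, Grin2b at 120, 102, 62.4 and 35.1 CPM, and Syt1 at 49.6, 44.2, 34.03 and 21.5 CPM. Snap25 had 376, 292, 293 and 199 CPM. The Gria2 levels of tumours 1 and 2 were above those of tumours 3 and 4 with no overlap of counting intervals. For Grin2b the intervals of tumours 2 and 3 overlapped, for Syt1 those of every such pair but tumours 1 and 4, and tumours 2 and 3 did not differ in Snap25 beyond counting error. Neuronal cells made up 30.7%, 26.3%, 32.5% and 26.7% of the cells, and their part in these levels was not tested.

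Within a class the difference between the pairs remained for Gria2. Its level in tumours 1 and 2 over that in tumours 3 and 4 was 4.50 in dividing cells (95% counting interval 3.84 to 5.29), 4.79 in non-dividing cells and 2.72 in neuronal cells (2.37 to 3.13). Grin2b had ratios of 2.69, 3.06 and 2.30 in the same order. Snap25 was 2.36 in dividing and 1.88 in non-dividing cells, but 0.937 in neuronal cells (0.758 to 1.16), where the pairs did not differ beyond counting error. Syt1 gave 1.42 in neuronal cells (0.906 to 2.23). Among barcodes with at most 10% mitochondrial UMIs, the Gria2 ratios were 5.59, 4.93 and 3.01, no smaller than in all barcodes. With 2 tumours a pair these ratios describe the tumours at hand, and counting intervals do not cover the spread between animals.

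**Figure D3:**
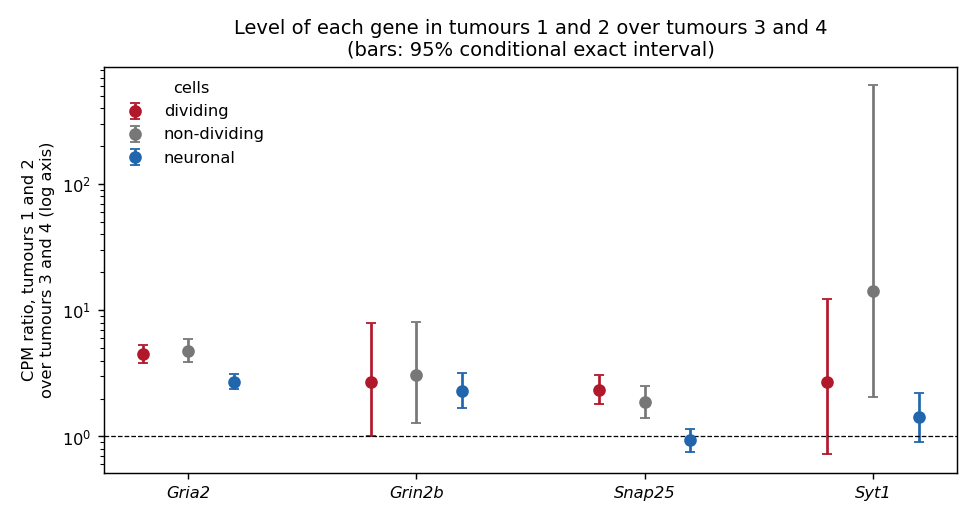
Level of each gene in tumours 1 and 2 divided by that in tumours 3 and 4 (y axis, log axis) for dividing, non-dividing and neuronal cells; bars are 95% counting intervals and the dashed line marks equal levels. Gria2 lies above the line in all classes (2.72 to 4.79), and neuronal Snap25 lies on it (0.937).

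Gene length moved with the difference between the pairs. Among 6843 expressed genes with a RefSeq length, the median log2 difference between tumours 1 and 2 and tumours 3 and 4 was −0.54 for genes under 20 kb, 0.09 for those of 20 to 100 kb and 0.47 for the 944 genes over 100 kb. Gria2 (122.8 kb) had a log2 difference of 1.70, exceeded by 1.80% of the genes over 100 kb. Grin2b, at 460 kb, had 1.04, exceeded by 17.2% of them. Syt1, at 513 kb, had 0.59, exceeded by 42.3%. Snap25 is shorter, 69.0 kb, and had 0.42. The part of length in the differences of these genes was not tested.

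Whether the step from dividing to neuronal cells differed between the pairs was fitted as an interaction over all genes. At an adjusted p under 0.05 (edgeR quasi-likelihood test, Benjamini-Hochberg) it called 1 of 4774 genes (0.0209%), Hmgb2, named after its values were seen, and 426 had an unadjusted p under 0.05. The 4 synaptic genes were chosen with the pairs already in view, so their estimates are given as a description, with no p. The interaction, tumours 1 and 2 minus tumours 3 and 4, was a log2 value of −1.31 for Snap25 (SE 0.28), and between −0.97 (without tumour 4) and −1.65 (without tumour 1) with a tumour left out. For Gria2 it was −0.69 (SE 0.19), and −0.36 (SE 0.30) without tumour 4. Grin2b (−0.14, SE 0.53) and Syt1 (−0.86, SE 1.13) had few dividing-cell UMIs behind their estimates, and the direction turned with a tumour left out, to 0.22 for Grin2b without tumour 3 and to 4.68 for Syt1 without tumour 2.

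Detection of one gene in a neuronal cell was set against detection of another. In tumours 1 and 2, 15.1% of neuronal cells with a Gria2 UMI had a Snap25 UMI, against 18.2% of those without. Tumours 3 and 4 had 27.1% (exact 95% interval 19.7 to 35.5) and 17.1% (13.2 to 21.5), intervals that overlap. Snap25 was seen in 13 of 34 Grin2b-positive neuronal cells of tumours 3 and 4 (38.2%) and in 18.5% of the others. Of those 13 cells 10 came from tumour 3, which had 55.6% (30.8 to 78.5) and 22.3% (16.2 to 29.4), and tumour 4 had 18.8% and 16.1%. In tumours 1 and 2 the same shares were 17.3% and 16.5%. Snap25 was seen in 10 of 24 Syt1-positive neuronal cells of tumours 3 and 4 (41.7%, 22.1 to 63.4) and in 18.7% of the others (15.2 to 22.6), against 13.6% and 16.7% in tumours 1 and 2. Gria2 was seen with and without Syt1 in 41.7% and 27.4% of neuronal cells of tumours 3 and 4 and in 68.2% and 52.5% of those of tumours 1 and 2, with overlapping intervals. The intervals also overlapped for Grin2b with and without Gria2 and for Syt1 with and without Grin2b in both pairs of tumours.

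Likeness over the 12 sums of tumour and class was taken as Pearson's r of log2(CPM + 10) between each of the 4 genes and all genes with a mean of at least 50 CPM, a limit not applied to the 4 themselves. The sums of 1 tumour share a library, and no p is attached. Grin2b and Syt1 were the most alike of the 4 (r = 0.91), and Gria2 and Syt1 the least (r = 0.61). This order is of the 12 sums, in which the pairs of tumours differ in level: over the 6 sums of tumours 3 and 4 all 6 values lay between 0.90 and 0.95, highest for Gria2 and Snap25, and over those of tumours 1 and 2 between 0.34 and 0.89. Closest to Gria2 were Kmt2a, a histone methyltransferase, Cacna1b, the pore of the N-type calcium channel, and Chuk, a kinase of NF-κB signalling, all at r = 0.97. Grin2b was closest to the tubulin gene Tubb2a (0.99), to Map2 (0.98), which is in the neuronal list, and to Zfpm2 (0.98). Snap25 lay nearest to Smarcc2 (0.96) and Map1a (0.94). For Syt1 these were Gnaq (0.98), Dner (0.95) and Celf4 (0.95).

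Other genes of the synapse were taken from a list of 98 in 10 functional groups, of which 86 were in the tables and 37 passed the low-count filter. Of these 37, 24 were higher in neuronal than in dividing cells, 2 were lower and 11 were not called (edgeR, adjusted p under 0.05), against 16.8% higher among all genes. The median log2 fold change was 1.32 for the list and −0.03 for all genes tested. A gene counted mainly in neuronal cells passes the filter through them, so these shares are of the genes that passed. Against non-dividing cells 18 of 33 were higher and 1 lower, where 25.2% of all genes were called, 13.4% higher and 11.8% lower. Between non-dividing and dividing cells 2 of 26 were higher and 0 lower, where 9.73% of all genes were called, 3% higher and 6.73% lower. Grin2b and Syt1 did not pass the filter in that last comparison.

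Receptor genes other than Gria2 and Grin2b moved unevenly. Of 5 tested genes of the AMPA receptor group, Gria4, the GluA4 subunit, was higher in neuronal cells in 4 of 4 tumours (log2 1.73, SE 0.19), at 474, 437, 270 and 194 CPM against 162, 141, 40.2 and 58.6 CPM. Gria3, the GluA3 subunit, was lower in 4 of 4 tumours (log2 −1.62, SE 0.36, edgeR adjusted p = 0.000779), at 13.9 to 34.9 CPM against 45.2 to 96.8 CPM. The auxiliary subunit gene Cacng2 was not called (log2 0.23, SE 0.16, edgeR adjusted p = 0.292). Of 5 listed NMDA receptor genes 2 were in the tables and 0 passed the filter. In the kainate group Grik2 was higher (log2 2.04, SE 0.25) and Grik5 was not called (log2 −0.15, SE 0.28). In the GABA-A group Gphn, the scaffold gephyrin, was not called (log2 0.05, SE 0.26).

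Release genes besides Snap25 and Syt1 fall into groups of few tested genes, to be read beside the 16.8% of all tested genes that were higher. Of the synaptic vesicle genes 6 of 7 were higher, among them Slc17a6, the vesicular glutamate transporter VGLUT2 (log2 1.45, SE 0.17), and the vesicle GTPase gene Rab3c (log2 1.34, SE 0.22). Of the SNARE genes and regulators 5 of 8 were higher. Cplx2, a complexin of the same group, was at 319 to 499 CPM in neuronal and 415 to 477 CPM in dividing cells and was not called (log2 −0.26, SE 0.15). Of the active zone genes 4 of 5 were higher, with Ppfia2 at log2 2.37 (SE 0.23) and Cacna1b at 1.32 (SE 0.29). Without the tumour block, Slc17a6 and Cacna1b were not called. Of the 8 other synaptotagmins in the list 2 passed the filter, and they went opposite ways. Syt11, which does not bind calcium, was higher (log2 1.38, SE 0.14), at 668 to 845 CPM against 263 to 301 CPM. Syt13, also of the kind that lacks calcium binding, was lower (log2 −2.14, SE 0.33), at 9.98 to 34.6 CPM against 65.7 to 136 CPM. Genes of adhesion were higher in 3 of 3 tested cases and those of postsynaptic scaffolds and signalling in 2 of 2, with Nrxn2 at log2 1.86 (SE 0.23), the scaffold gene Dlg4 at 0.98 (SE 0.32) and the kinase subunit gene Camk2b at 1.32 (SE 0.38). Neither Dlg4 nor Camk2b was called without the tumour block, nor Dlg4 with DESeq2 or without tumour 3, nor Camk2b in tumours 3 and 4 alone.

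**Figure D4:**
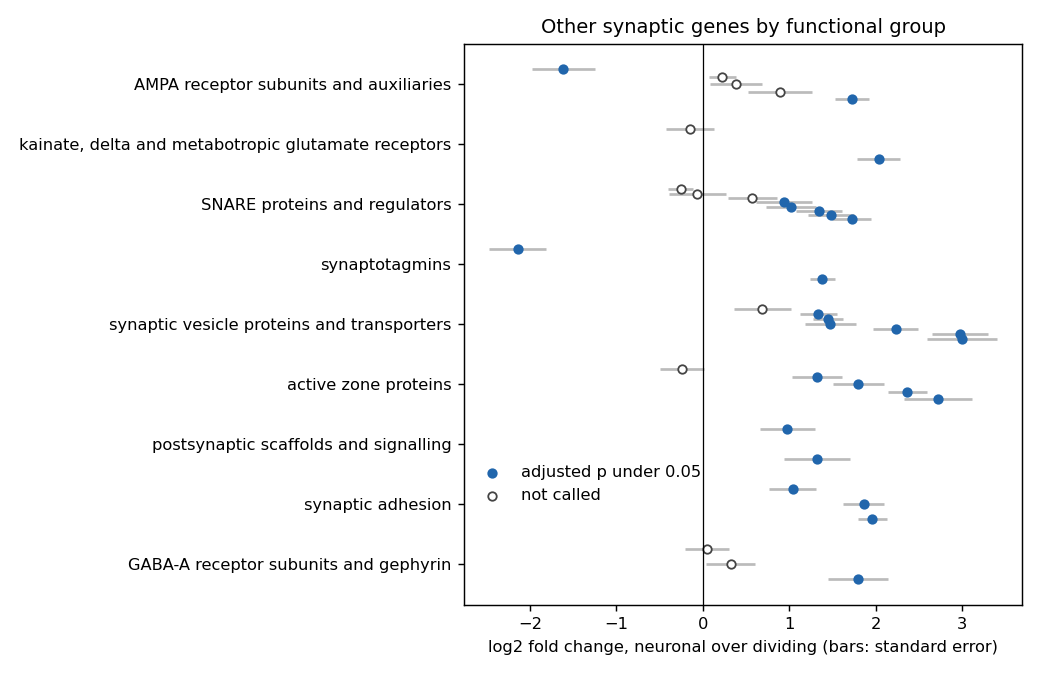
Log2 fold change between neuronal and dividing sums (x axis, edgeR, 4 tumours) of the 37 tested genes of the synaptic list other than Gria2, Grin2b, Snap25 and Syt1, by functional group (y axis); filled points have an adjusted p under 0.05, open points were not called, and bars are standard errors. Of the 37, 24 lie to the right as filled points, and the 2 filled points on the left are Gria3 and Syt13.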

How the data were processed

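Drop-seq libraries of 4 tumours were analysed from 1 deposited table per tumour. Its values are whole-number UMI counts per gene and barcode, deposited without normalization. STAR and the mm10 build are named in the submitters' processing notes, and the counting software and barcode filter are not given in the sources used here. A further 6 tables with 11203 cell columns could be tied to none of the labelled samples and stayed out.

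The 4 genes, the marker lists and the synaptic list were chosen with earlier results of these data known, and the limit of 5 marker UMIs was set after the list sums were seen. Each class of each tumour gave 1 sum of counts, because cells are not replicates, and CPM is per 1000000 UMIs of that sum. Intervals are exact at 95% (Poisson, Clopper-Pearson or conditional binomial) and cover counting error only. No limit was set on the mitochondrial share in the main setting. Doublets were treated by setting mixed cells apart, and Scrublet (scanpy 1.11.5), which marked 25 barcodes, served as an alternative. Sums were fitted with edgeR 4.0.16 in R 4.3.3 (TMM, filterByExpr, quasi-likelihood test, Benjamini-Hochberg at 0.05) and tumour entered as a block, since its classes share 1 animal. Over 4869 genes both classes of a tumour deviated together from their means (r of 0.72, 0.54, 0.66 and 0.73 for tumours 1 to 4). The classes were made from expression in the same cells, so calls describe how they differ. Each SE of an edgeR log2 value is an approximation, its absolute value over the square root of the F statistic of the quasi-likelihood test. Counts were also simulated for neuronal against dividing cells (4840 genes run), with 200 genes changed, of which 150 passed the filter. Among those that passed, 98.8% of 4-fold and 47.8% of 2-fold changes were recovered, and 2.59% of calls were false. The simulated sums held no difference between tumours, so these rates may not hold for the real sums.

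Besides the 4 genes, the text names the 2 genes of each synaptic group with the highest neuronal CPM among those tested, list genes called lower, and the 3 genes most like each of the 4. The values of 3 genes that this rule names are not reported here. The promoter windows were matched by symbol. Alternatives covered the cells used, the class limits, Leiden clusters, scaling, DESeq2 1.42.0, the low-count filter, the block and each tumour left out.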

Additional observations from a re-analysis of the deposited data

Results flagged for a closer look

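Hmgb2, a chromatin protein gene of dividing cells, was the 1 gene called in the main setting for a difference between tumours 1 and 2 and tumours 3 and 4 in the step from dividing to neuronal cells, and it is named here after its values were seen. Its interaction was a log2 value of 1.68 (SE 0.30, edgeR adjusted p = 0.0384). The call was lost without tumour 1 and without tumour 2, where 0 genes were called, and 15 genes were called among barcodes with at most 10% mitochondrial UMIs. Dividing cells of tumours 1 and 2 had 449 and 472 CPM and those of tumours 3 and 4 1788 and 2063 CPM, whereas neuronal cells had 130, 186, 145 and 245 CPM in tumours 1 to 4. It was lower in neuronal cells in 4 of 4 tumours. By Dixon's test at 95%, no tumour lay outside the other 3 in level or share of Gria2, Grin2b, Snap25 or Syt1 among 32 sets of 4 values examined, of which chance alone would mark about 5%.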

How the results depend on the processing

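Neuronal cells had the highest mean level of Gria2, Grin2b, Snap25 and Syt1 in each of the 12 settings of cells, classes and tumours run, and in each the neuronal to dividing ratios of Grin2b and Syt1 exceeded those of Gria2 and Snap25. The ratio of Grin2b was 15.3 on average and became 26.6 with at most 10% mitochondrial UMIs and 19.5 with Leiden clusters, and that of Syt1, a mean that holds lower bounds, went from 9.32 to 5.32 with at least 1000 UMIs. The share of non-dividing cells with Grin2b became 0.622% with at least 1000 UMIs per barcode and 0.730% with Leiden clusters, as a mean over tumours. Without thinning the mean shares in dividing, non-dividing and neuronal cells were 1.55%, 2.31% and 15.6% for Grin2b and 18.5%, 18.4% and 27.0% for Snap25. Those of Syt1 were 0.704% (dividing) and 7.23% (neuronal). In tumour 2 the neuronal class was then not the highest for Snap25, with 21.6%, 18.9% and 18.4% in the same order. Deeper cells count more without thinning.

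The 1699 genes called between neuronal and dividing cells became 833 with at least 1000 UMIs, 1056 with DESeq2 and 582 with no replicate block, that is, without pairing the sums of a tumour. The 26 called genes of the synaptic list became 13 of 21 tested with at most 10% mitochondrial UMIs (1342 of 3291 over all genes), 11 of 16 with at least 1000 UMIs (833 of 2839) and 42 of 84 with no filter on low counts (2391 of 14591). The 1 gene called in the interaction became 15 with at most 10% mitochondrial UMIs, 24 with no filter and 0 to 5 with a tumour left out: 0 without tumour 1 or 2, 5 without tumour 3 and 4 without tumour 4. Apart from the smaller numbers of genes tested, the causes were not tested. Of the named synaptic genes, Cacna1b, Camk2b, Dlg4 and Slc17a6 were not called without the block, Dlg4 also not with DESeq2 or without tumour 3, and Camk2b not in tumours 3 and 4 alone. Cacng2 was called with at least 1000 UMIs. Among the named synaptic genes only Gphn, called in no setting, changed direction, with log2 fold changes from −0.49 to 0.50 over the alternatives. The fitted log2 fold change of Snap25 was 0.80 without tumour 4 and 1.41 without tumour 2, and that of Syt1, 3.45 over all tumours, was 4.67 without tumour 2. Depth limits Grin2b and Syt1 most, with 21 and 12 UMIs in dividing cells.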
